A study of Rattus norvegicus with 28 samples.

Results

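Primary rat microglia, the macrophages of the brain, were compared after exposure to bacterial lipopolysaccharide (LPS) and after exposure to water, its vehicle, over all genes. The comparison rests on 6 of the 28 RNA-seq libraries of a study that treated cultured microglia and astrocytes with LPS or with recombinant envelope protein of the endogenous retrovirus HERV-W (ENV). The members were chosen by title: 3 libraries of microglia with LPS and 3 of microglia with H2O. Cells of both groups were prepared from Wistar rat cortex (postnatal day 1) and kept in flasks for 10 days before shaking, with floating cells taken after 2 and 24 h and purified on magnetic beads against CD11b/c. They were stimulated 1 day after isolation, in medium with 10% FCS, with 100 ng/ml LPS or with H2O. Sequencing libraries were made by mRNA capture from 150 ng of total RNA. The sources used here give neither the length of the exposure nor whether replicates came from separate litters or cultures. Each p-value thus covers only the spread among these 6 libraries, and that spread may be technical.

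LPS, a component of the outer membrane of Gram-negative bacteria, is bound by CD14 and by the complex of TLR4 with MD-2 on the macrophage surface. Signalling through the adaptor MyD88 activates NF-kB and drives inflammatory cytokine and chemokine genes, while the adaptor TRIF activates IRF3 and interferon beta, which in turn induces interferon-stimulated genes through STAT and IRF factors. In the brain, microglia are the main cells that carry TLR4, and their resting state is marked by genes such as P2ry12, Cx3cr1 and Tmem119.

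The tables listed 23139 genes, of which 6023 had no count in any of the 6 libraries and 12229 passed the filter on low counts and were tested. The totals lay between 38080379 and 42724111 counts per library, so a count of 0 allowed at most 0.0878 CPM (counts scaled to a common library size). Libraries with the same replicate number resembled each other: the correlation of their deviations from the group means was 0.42, 0.42 and 0.51 for replicates 1, 2 and 3. Replicate 3 of both groups stood apart, with correlations of -0.38 to -0.41 against replicates 1 and 2 of the other group. Replicates 1 and 2 of opposite groups correlated at 0.2 and 0.19. Deviations from a group mean of 3 libraries sum to 0, so a match in replicate 3 itself favours negative values elsewhere. The replicate number was used as a block, as set when the comparison was chosen with earlier results of these data known. Below, 3 values in a row are replicates 1, 2 and 3. Each log2 change is LPS minus H2O with its standard error (n = 3 pairs), and each adjusted p is from the edgeR quasi-likelihood test over all genes tested. The standard error is the change divided by the square root of the test's F value, and is not the spread of the pair ratios.

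The labelled cell type matched its markers. All 16 microglial and macrophage markers were detected, and their levels summed to 13800 to 15400 CPM with H2O and to 13420, 12410 and 8472 CPM with LPS. The 10 astrocyte markers summed to 62.7, 75.9 and 284 CPM with H2O and to 45.4, 24.5 and 26.97 CPM with LPS, and Gjb6 was at 0. The 12 markers of the oligodendrocyte lineage summed to 70.8, 82.0 and 272 CPM with H2O and to 137 to 151 CPM with LPS. Of the 9 tested, Cnp was called higher and Pdgfra, Olig1, Olig2 and Mbp lower. In this list 2 were called without replicate 1 and 2 without replicate 2. Without the replicate block 1 was called higher and 1 lower, and in 2 of the 9 the groups did not overlap. The 5 endothelial markers summed to 58.6, 97.2 and 51.98 CPM with H2O and to 156.8, 215.3 and 91.2 CPM with LPS, with Kdr at 0. Of the 4 tested, Pecam1 and Cdh5 were called higher and 2 were not called, with log2 changes from -1.86 to 2.36. In this list 1 was called without replicate 1 and 1 without replicate 2. The part of endothelial markers in the results was not tested. These called markers were named after their values were seen. Markers of fibroblasts and mural cells summed to at most 10.9 CPM and those of ependymal cells and choroid plexus to 3.73 CPM. Markers of neurons reached at most 12.2 CPM in sum, and those of lymphocytes 2.58 CPM. Those of granulocytes and blood monocytes summed to at most 0.562 CPM with H2O and 3.26 CPM with LPS. Elane, Cd3e, Cd3d, Ms4a1 and Nkg7 were at 0. Replicate 3 of the H2O group thus held the most astrocyte and oligodendrocyte-lineage signal, and its part in the results was not tested. In bulk RNA, fewer cells of a kind and less RNA per cell cannot be told apart.

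LPS changed a large share of the transcriptome. At an adjusted p under 0.05, 3707 genes (30.3% of those tested) were called, 1864 higher (15.2%) and 1843 lower (15.1%), and the median change of all genes was -0.04 on the log2 scale. All 3707 had the same sign in all 3 pairs, which a call in a paired fit favours. In 3466 of them the groups did not overlap, but that also held for 6391 of all 12229 genes tested. The count moved with the pair left out: without replicate 1 the count was 1181, without replicate 2 it was 1051 and without replicate 3 it was 4954. Of the 3707 genes, 794 were called in each of these 3 fits. The log2 ratios of replicates 1 and 2 were closer to each other (r = 0.89 across 12229 genes, which are not independent) than those of replicate 3 to either (r = 0.77 and 0.79).

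The plot of called shares by list shows where the response lay. Genes of MHC class I loading, interferon-stimulated genes, chemokines and glycolysis were called higher in 75.0% to 100% of their tested members, against 15.2% over all genes. Some chemokines, such as Cxcl11, Ccl5 and Cxcl9, were under the filter in all H2O libraries. They could be tested only because their LPS levels were high, which raises the chemokine share. Genes of the cell cycle (91.7%) and the mitochondrially encoded respiratory chain (69.2%) were called lower most often, against 15.1%. Lysosomal (48.0%) and homeostatic microglial genes (46.2%) followed. Where leaving out a pair moved the number of called members of a list by more than 1.5 times, that number is given beside the list's count.

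**Figure D1:**
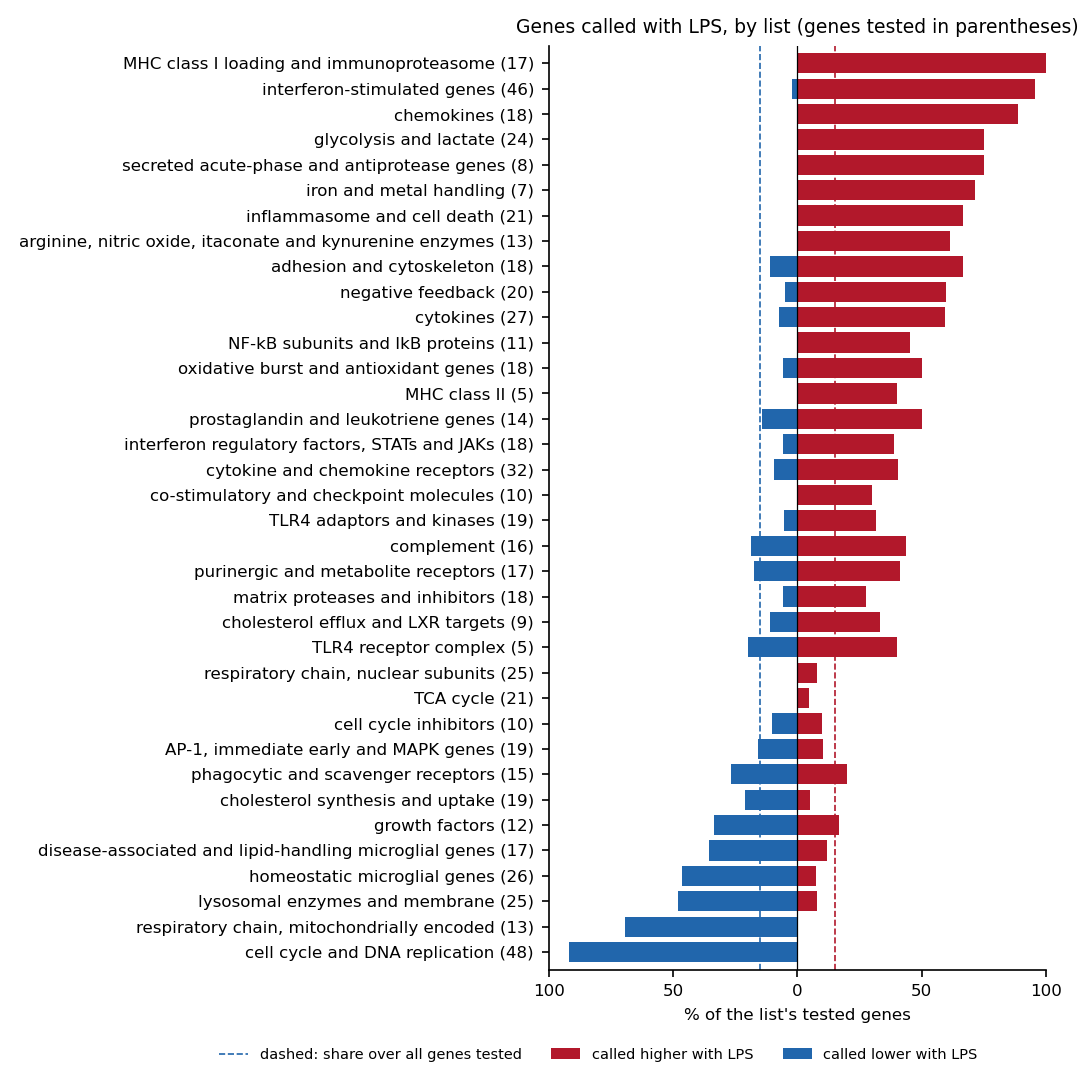
Share of each gene list's tested members called higher (red, to the right) or lower (blue, to the left) with LPS, in percent, with the number tested in parentheses. Dashed lines mark the shares over all 12229 genes tested, 15.2% higher and 15.1% lower. MHC class I genes reach 100% higher and cell cycle genes 91.7% lower. Members under the filter in a group were tested only through the other group, which affects the shares.

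The receptor complex itself changed in both directions. Cd14, the co-receptor that hands LPS to the complex, rose from 393, 222 and 306 to 1486, 1006 and 1842 CPM (log2 change 2.23 ± 0.21, adjusted p = 0.00579), first the H2O and then the LPS libraries. Tlr4, the signalling receptor, fell from 76.8, 83 and 71.8 to 41.2, 45.5 and 19 CPM (log2 change -1.22 ± 0.26, adjusted p = 0.0286). Ly86, which encodes the MD-1 partner of the related receptor Cd180, rose from 103, 137 and 89.9 to 350.0, 453 and 191 CPM (log2 change 1.53 ± 0.20, adjusted p = 0.0101). For these 3 genes the groups did not overlap, and the fall of Tlr4 was larger in replicate 3 than in the others. Ly96, which encodes MD-2, was not called, at 86.6, 77.7 and 88.3 CPM with H2O and at 94.3, 86.7 and 67.6 CPM with LPS (log2 change -0.03 ± 0.16, adjusted p = 0.884). Tlr4 (0.0765) had an adjusted p over 0.05 without replicate 1, as had Tlr4 (0.0667) and Ly86 (0.0634) without replicate 2.

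Downstream of the receptor, 6 of 19 adaptors and kinases were called higher and 1, Tab1 (-0.60, named after its value was seen), lower (median log2 change 0.42, with 0 called without replicate 1 and 2 without replicate 2). Map3k8, the kinase that links the pathway to ERK, rose from 23.1, 42.7 and 23.7 to 80.6, 118 and 189.8 CPM (log2 change 2.08 ± 0.34, adjusted p = 0.0169), and Tbk1, the kinase of IRF3, rose from 64.7, 63.8 and 60.5 to 133, 131 and 106 CPM (log2 change 0.96 ± 0.13, adjusted p = 0.0108). Myd88 was not called, at 115, 159 and 94.6 CPM with H2O and at 177, 189.7 and 124 CPM with LPS (log2 change 0.42 ± 0.14, adjusted p = 0.0819). Of the 11 NF-kB subunits and IkB proteins, 5 were called higher and none lower (median 0.91, with 2 called without replicate 1 and 3 without replicate 2). Nfkbia, the inhibitor that NF-kB itself induces, rose from 58.1, 76 and 74.5 to 235, 187 and 399 CPM (log2 change 1.91 ± 0.26, adjusted p = 0.0114). Bcl3, a nuclear IkB family member, rose from 16.5, 26.2 and 9.58 to 98.1, 96.3 and 89.9 CPM (log2 change 2.56 ± 0.30, adjusted p = 0.00853), and its LPS libraries lay within 89.9 to 98.1 CPM. Nfkb1, the precursor subunit, was not called, at 182, 226 and 143 CPM with H2O and at 269, 253 and 374 CPM with LPS (log2 change 0.70 ± 0.27, adjusted p = 0.115). Tab1 (0.106), Map3k8 (0.0664), Tbk1 (0.0583) and Nfkbia (0.057) had an adjusted p over 0.05 without replicate 1, as had Tab1 (0.202) and Tbk1 (0.0952) without replicate 2. Nfkb1 (0.0478) had an adjusted p under 0.05 with DESeq2. None of the 7 called adaptors and kinases was called in all 3 fits that left out a replicate, nor were 3 of the 5 called NF-kB and IkB genes.

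Many inducible brakes of the pathway were higher as well: 12 of 20 tested genes of negative feedback were called higher and 1, Socs2 (-1.93, named after its value was seen), lower (median 1.29, with 5 called without replicate 1 and 7 without replicate 2). Socs3, a suppressor of cytokine receptor signalling, rose from 1.76, 1.76 and 3.28 to 179, 137 and 492 CPM (log2 change 6.73 ± 0.27, adjusted p = 0.00242), and Socs1 rose from 0.232, 0.659 and 0.55 to 5.47, 4.1 and 7.94 CPM (log2 change 3.63 ± 0.47, adjusted p = 0.0101). Dusp2, a phosphatase of MAP kinases, rose from 1.95, 3.21 and 1.45 to 58.5, 63 and 179.5 CPM (log2 change 5.34 ± 0.63, adjusted p = 0.00874). These 3 were at or below 3.28 CPM in every H2O library and did not overlap between groups. Tnip3, a binding partner of the A20 protein, rose from 6.6, 4.92 and 0.754 to 204, 152 and 364 CPM (log2 change 6.02 ± 1.01, adjusted p = 0.0175). Il1rn, the natural antagonist of the receptor for Il1a and Il1b, rose from 39.9, 21.2 and 8.17 to 220.2, 159 and 49 CPM (log2 change 2.65 ± 0.15, adjusted p = 0.0031), with its lowest values in replicate 3 of both groups. Tnfaip3, which encodes A20, was not called, at 69, 100.1 and 46.2 CPM with H2O and at 153, 91 and 142 CPM with LPS (log2 change 0.88 ± 0.37, adjusted p = 0.133), and its LPS library of replicate 2 lay below the H2O library of the same number. Socs2 (0.0648) and Tnip3 (0.0599) had an adjusted p over 0.05 without replicate 1, as had Socs2 (0.0952) and Tnip3 (0.0514) without replicate 2. Tnfaip3 (0.0438) had an adjusted p under 0.05 with DESeq2.

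Cytokine genes held some of the largest rises, and several of them differed widely between replicates. Of 32 listed genes 27 were tested, 16 were called higher and 2 lower, with a median log2 change of 2.03 against -0.04 for all genes, with 9 called without replicate 1 and 11 without replicate 2. Il6, the pleiotropic fever and acute-phase cytokine, was barely detected with H2O and rose from 0.116, 0.0879 and 0.0408 to 15.9, 6.6 and 155 CPM (log2 change 8.85 ± 1.03, adjusted p = 0.00866). It had 11 counts in the H2O group and a ratio of counts per library size of 735 (95% counting interval 410 to 1470). Without replicate 3 that ratio was 110 (57.6 to 241). Il1b, the inflammasome-processed pyrogen, rose from 162, 218 and 90.4 to 1509, 1509 and 6042 CPM (log2 change 3.94 ± 0.79, adjusted p = 0.0264), and Il10, the main anti-inflammatory cytokine of macrophages, rose from 1.51, 3.34 and 0.183 to 33.9, 47.4 and 59.3 CPM (log2 change 5.15 ± 0.94, adjusted p = 0.0212). In all 3 the LPS library of replicate 3 was the highest, 9.77 times the next for Il6 and 4.0 times for Il1b. Csf3, the neutrophil growth factor, rose from 0, 0 and 0.0815 to 6.2, 3.26 and 247 CPM (log2 change 11.45 ± 0.29, adjusted p = 0.0018), with 4 counts in the H2O group, all in replicate 3, and a ratio of counts per library size of 2910 (95% counting interval 1140 to 10700). Without replicate 3 it was at 0 with H2O and at least 139-fold higher with LPS. Its log2 ratios in the 3 pairs were 6.98, 6.06 and 10.88, a spread that the standard error of 0.29 does not describe. Lta, which encodes lymphotoxin alpha, was at 0 in the H2O libraries and at 1.84, 4.52 and 124 CPM with LPS, at least 1974-fold higher against a floor of 3 counts over the H2O group (adjusted p = 0.00514) and at least 94.9-fold without replicate 3. Tnfsf10, the death ligand TRAIL and an interferon target, rose from 0.255, 0.308 and 0.204 to 51.8, 28.4 and 6.4 CPM (log2 change 6.48 ± 0.56, adjusted p = 0.00498) and was lowest in replicate 3. Il1b (0.0827) and Il10 (0.0777) had an adjusted p over 0.05 without replicate 1, as had Il1b (0.062) without replicate 2. Lta (0.0549) had one over 0.05 without the replicate block.

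Tnf, a cytokine widely used as a marker of microglial activation, missed the threshold. It stood at 55.5, 41.1 and 54.9 CPM with H2O and at 81.4, 168 and 614 CPM with LPS (log2 change 2.03 ± 0.61, adjusted p = 0.0652). All 3 LPS libraries lay above all H2O libraries, but the log2 ratios were 0.55, 2.03 and 3.48. Il12b, a shared subunit of interleukins that polarise T cells, was at 0.0463, 0 and 0.0204 CPM with H2O and 3.51, 2.08 and 11.4 CPM with LPS, with 3 counts in the H2O group and a ratio of 258 (95% counting interval 87.9 to 1256, adjusted p = 0.00482), which was 123 without replicate 3 and 630 without replicate 1. Ifnb1, the interferon gene downstream of TRIF, did not pass the filter. It had no count with H2O and was at 0.468, 0.197 and 1.16 CPM with LPS, at least 27.8-fold higher against the floor and at least 9.74-fold without replicate 3. The 2 cytokine genes called lower were Tnfsf13b, which encodes the B cell survival factor BAFF (-2.10 ± 0.54, adjusted p = 0.0447), and Csf1, the ligand of the receptor Csf1r (-1.43 ± 0.20, adjusted p = 0.012). Both were named after their values were seen. Tnfsf13b (0.113) had an adjusted p over 0.05 without replicate 1, as had Tnfsf13b (0.0716) and Csf1 (0.0576) without replicate 2. Tnfsf13b (0.0578) had one over 0.05 without a filter on low counts. Tnf (0.048) had an adjusted p under 0.05 without replicate 1, as had Tnf (0.0465) without the replicate block. Tnf (0.000284) had one under 0.05 with DESeq2, as had Tnf (0.0196) in the joint fit of 12 libraries.

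Of 23 listed chemokines 18 were tested, 16 were called higher and none lower (median 5.29, with 7 called without replicate 1 and 10 without replicate 2). The named chemokines that attract neutrophils and monocytes were highest in the LPS library of replicate 3. Cxcl1 rose from 1.95, 0.747 and 1.51 to 68.9, 16.1 and 772 CPM (log2 change 6.14 ± 1.13, adjusted p = 0.0218), Cxcl2 rose from 4.24, 2.33 and 1.34 to 127, 37.5 and 1181 CPM (log2 change 5.88 ± 1.40, adjusted p = 0.0376) and Ccl2 rose from 69.5, 28 and 23.2 to 811, 461 and 3083 CPM (log2 change 4.78 ± 0.86, adjusted p = 0.0209). The LPS library of replicate 3 was 11.2 times the next for Cxcl1 and 3.8 times for Ccl2. The interferon-induced ligands of the receptor CXCR3 were mixed in that order. Cxcl10 rose from 2.15, 3.98 and 1.85 to 1919, 1503 and 1384 CPM (log2 change 9.29 ± 0.41, adjusted p = 0.00242) and Cxcl11 rose from 0.0232, 0.0879 and 0.0408 to 261, 92 and 171 CPM (log2 change 11.58 ± 0.51, adjusted p = 0.00242), and for both the highest LPS library was replicate 1. Cxcl9 rose from 0.116, 0.044 and 0.0612 to 7.55, 4.36 and 10.8 CPM (log2 change 6.62 ± 0.41, adjusted p = 0.00348) and was highest in replicate 3. Ccl5, which attracts T cells, rose from 0.0695, 0.022 and 0.0612 to 56.2, 25.4 and 29.4 CPM (log2 change 9.40 ± 0.28, adjusted p = 0.0018), with its highest LPS library also in replicate 1. The groups did not overlap for any of these 7 genes. Cxcl11 and Ccl5 had 7 counts each in the H2O group and Cxcl9 had 10, with ratios of counts per library size of 3420, 724 and 104 (95% counting intervals 1660 to 8500, 351 to 1800 and 56.0 to 217). The 2 tested chemokines not called, Cx3cl1 and Cxcl14, had log2 changes of -1.59 and -1.31 with overlapping groups. Cxcl1 (0.0737), Cxcl2 (0.111) and Ccl2 (0.057) had an adjusted p over 0.05 without replicate 1, as had Cxcl2 (0.0715) and Ccl2 (0.0693) without replicate 2. Cx3cl1 (0.00456) had an adjusted p under 0.05 without replicate 3. Reads of near-identical family members may have been divided between symbols.

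Receptors for these signals were called higher in 13 of 32 tested members and lower in 3 (median 0.38, with 5 called without replicate 1 and 8 without replicate 2). Il23r was at 0 with H2O and at 2.69, 3.20 and 37.7 CPM with LPS, at least 662-fold higher (adjusted p = 0.00726) and at least 87.2-fold without replicate 3. Csf2rb, the shared beta chain of receptors for growth factors of myeloid cells, rose from 41.3, 46.7 and 36.9 to 394, 309.9 and 247 CPM (log2 change 2.91 ± 0.18, adjusted p = 0.00359), and Il15ra rose from 2.43, 2.4 and 3.3 to 21, 15.2 and 19.6 CPM (log2 change 2.78 ± 0.20, adjusted p = 0.00389). Tnfrsf1b, a receptor for tumour necrosis factor, rose from 270.5, 393 and 142 to 1417, 1213 and 2154 CPM (log2 change 2.63 ± 0.51, adjusted p = 0.0243). Csf1r, on which microglia depend for survival, was not called, at 2320, 2697 and 2413 CPM with H2O and at 3307, 2533 and 1007 CPM with LPS (log2 change -0.27 ± 0.39, adjusted p = 0.609), and its lowest value was the LPS library of replicate 3. Tnfrsf1b (0.0918) had an adjusted p over 0.05 without replicate 1.

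**Figure D2:**
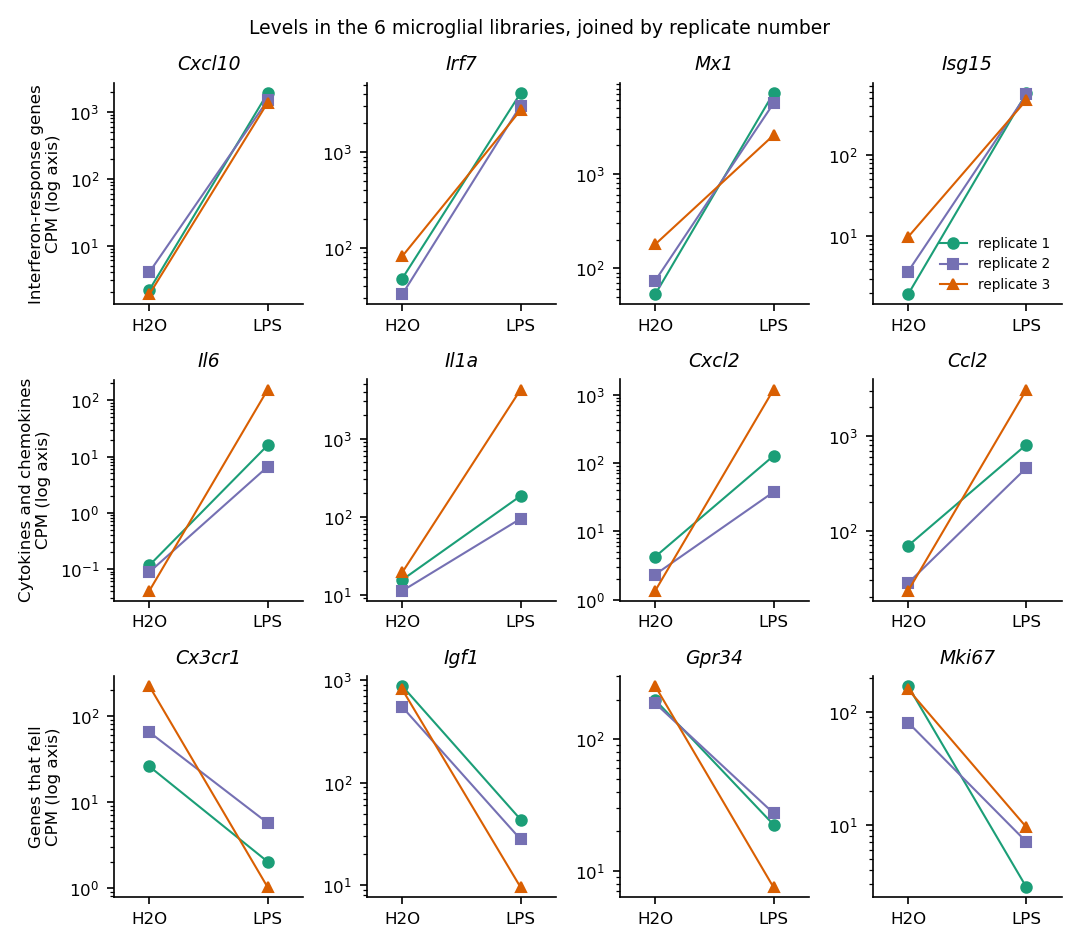
Level of 12 genes in each of the 6 libraries, in CPM on a log axis with its own range in each panel, with lines joining the H2O and LPS libraries of a replicate number. Il6, Il1a, Cxcl2 and Ccl2 have their highest point in the LPS library of replicate 3, where Cxcl10, Irf7, Mx1 and Isg15 have the lowest of their LPS points.

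Interferon-stimulated genes rose almost throughout. Of 46 tested, 44 were called higher and 1 lower, with a median log2 change of 3.53, and 38 were called in all 3 fits that left out a replicate. Rsad2, which encodes the antiviral protein viperin, rose from 2.29, 4.59 and 5.14 to 1564, 771 and 532 CPM (log2 change 7.78 ± 0.72, adjusted p = 0.00576). Isg15, a ubiquitin-like modifier, rose from 1.92, 3.67 and 9.78 to 579.7, 558 and 477 CPM (log2 change 7.01 ± 0.66, adjusted p = 0.00591), and Usp18, the protease that removes it, rose from 7.25, 7.69 and 10.2 to 784, 820.0 and 977 CPM (log2 change 6.69 ± 0.20, adjusted p = 0.0018). Oasl, an antiviral protein of the oligoadenylate synthetase family, rose from 12.9, 15.9 and 16.1 to 2005, 1555 and 1869 CPM (log2 change 6.92 ± 0.26, adjusted p = 0.00206). The LPS libraries of these 4 genes lay at or above 477 CPM and the H2O libraries at or below 16.1 CPM. The medians of the list were 3.83, 3.71 and 2.83 in the 3 pairs, and 36 of 46 genes had their lowest ratio in replicate 3. Rsad2, with log2 ratios of 9.38, 7.37 and 6.68, and Mx1, an antiviral GTPase named after its values were seen, with 7.09, 6.25 and 3.84, show that order. The member called lower was Ifitm1, at 51.5, 18.1 and 14 CPM with H2O and at 1.75, 1.43 and 0.116 CPM with LPS (log2 change -4.80 ± 0.59, adjusted p = 0.00939), also named after its values were seen. Ifit1 was not called, at 0.208, 0.11 and 0.245 CPM with H2O and at 1.4, 0.759 and 0.407 CPM with LPS (log2 change 2.07 ± 0.59, adjusted p = 0.0554). Ifitm1 (0.057) had an adjusted p over 0.05 without replicate 1, as had Mx1 (0.0556) without replicate 2. Ifit1 (0.00592) had an adjusted p under 0.05 without replicate 3, as had Ifit1 (0.0412) without the replicate block. Ifit1 (0.0336) had one under 0.05 with DESeq2, as had Ifit1 (0.0122) in the joint fit of 12 libraries.

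Of 18 regulators of that programme, 7 were called higher and 1 lower (median 0.36, with 3 called without replicate 1 and 3 without replicate 2). Irf7, the amplifier of interferon production, rose from 48, 32.8 and 81.9 to 4140, 3066 and 2750 CPM (log2 change 6.02 ± 0.44, adjusted p = 0.00409), and Stat2, a subunit of the interferon-induced complex ISGF3, rose with log2 ratios of 2.53, 2.47 and 1.70 in the 3 pairs (log2 change 2.24 ± 0.23, adjusted p = 0.00678). Irf9, the DNA-binding subunit of that complex, rose from 25.1, 22.9 and 25.1 to 81.3, 51.7 and 46.1 CPM (log2 change 1.25 ± 0.20, adjusted p = 0.0151). Irf4, a factor of alternative macrophage activation, fell from 20.3, 30.6 and 13.2 to 0.497, 0.674 and 0.698 CPM (log2 change -5.02 ± 0.34, adjusted p = 0.00382), with no LPS library above 0.698 CPM. All 17 tested genes of MHC class I loading and the immunoproteasome were called higher (median 1.88, with 10 called without replicate 1 and 10 without replicate 2), 10 of them in all 3 fits that left out a replicate. Nlrc5, the transactivator of MHC class I genes, rose from 10, 9.12 and 9.01 to 249, 216 and 121 CPM (log2 change 4.32 ± 0.25, adjusted p = 0.00326). Tap1, the peptide transporter, rose from 41.9, 60.6 and 33.9 to 423, 363 and 368 CPM (log2 change 3.12 ± 0.24, adjusted p = 0.00421), and the proteasome subunit Psmb9 rose from 23.2, 29.9 and 25.7 to 172, 159.7 and 106 CPM (log2 change 2.45 ± 0.21, adjusted p = 0.00477). The class I gene RT1-S3 rose from 100.4, 93.9 and 126 to 1335, 1075 and 1077 CPM (log2 change 3.45 ± 0.22, adjusted p = 0.00351), with the caution that reads of RT1 genes can be shared between copies. The 2 MHC class II genes called higher of 5 tested, RT1-Da (5.03) and RT1-Bb (3.43), reached at most 1.77 and 0.698 CPM and had 4 and 5 counts in the H2O group. In this list (median 0.83) 0 were called without replicate 1 and 1 without replicate 2. Of the 3 members not called, the 2 most abundant had log2 changes of -0.87 and -1.21 with overlapping groups. Irf9 (0.0553), RT1-Da (0.0507) and RT1-Bb (0.0731) had an adjusted p over 0.05 without replicate 1, as had Irf9 (0.0667) and RT1-Bb (0.0899) without replicate 2.

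The sequences upstream of these genes were read from RefSeq (rat build GRCr8) to show the letters that motif counts rest on. Each stretch is printed 5′ to 3′ on the gene's strand, with matches on either strand in capitals. Matches are to GAAANNGAAA, the core of the interferon-stimulated response element, to GGGANNTTCC, a kB core, or to TTTNGCGC, an E2F core. The stretches are Cxcl10 at chr14:15988816-15989065 (plus strand, 250 bases before the start) and, all on the minus strand, Irf7 at chr1:205800054-205800133, Rsad2 at chr6:48788231-48788310, Il6 at chr4:5894606-5894685, Cxcl1 at chr14:17479362-17479441, Nfkbia at chr6:78597073-78597152 and Mcm6 at chr13:42404453-42404532. Cxcl10 is shown in full because it holds both kinds of match. Irf7 and Rsad2 hold the interferon core, Il6, Cxcl1 and Nfkbia the kB core, and Mcm6, a replication gene that fell, overlapping E2F cores.
Cxcl10: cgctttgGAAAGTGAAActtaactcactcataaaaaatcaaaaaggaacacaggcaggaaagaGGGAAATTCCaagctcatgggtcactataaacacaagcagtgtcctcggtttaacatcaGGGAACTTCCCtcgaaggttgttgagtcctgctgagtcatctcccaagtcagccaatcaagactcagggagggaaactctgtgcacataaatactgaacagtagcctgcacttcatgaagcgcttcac
Irf7: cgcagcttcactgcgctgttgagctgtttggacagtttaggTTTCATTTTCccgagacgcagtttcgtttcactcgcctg
Rsad2: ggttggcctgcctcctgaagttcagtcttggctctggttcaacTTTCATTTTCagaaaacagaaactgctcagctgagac
Il6: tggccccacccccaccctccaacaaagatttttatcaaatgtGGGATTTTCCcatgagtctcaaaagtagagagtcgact
Cxcl1: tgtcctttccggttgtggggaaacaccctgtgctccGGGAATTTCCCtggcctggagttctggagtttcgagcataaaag
Nfkbia: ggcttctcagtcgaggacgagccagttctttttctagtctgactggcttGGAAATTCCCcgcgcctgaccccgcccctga
Mcm6: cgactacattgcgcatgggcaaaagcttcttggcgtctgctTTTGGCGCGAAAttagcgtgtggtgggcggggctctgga

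Cxcl10 held GAAAGTGAAA from 243 to 234 bases before its start and kB matches that begin at 187, 128 and 127 bases, the last 2 overlapping on opposite strands. In Irf7 the interferon core lay on the other strand from 69 to 60 bases before the start and in Rsad2 from 147 to 138. The kB match began at 68 bases in Il6, at 84 and 83 (overlapping) in Cxcl1 and at 31 in Nfkbia. Over the 250 bases before the start, the interferon core was found in 3.61% of 27457 genes with an entry, 2.89% of the 9185 tested genes that matched by symbol, 7.18% of genes called higher (102 of 1421) and 2.24% of those called lower (31 of 1386). It was found in 23 of 35 interferon-stimulated genes and in 8 of 14 MHC class I genes with an entry, but in 1 of 13 chemokines and 1 of 18 cytokines. The kB core was found in 1.15% of all genes and in 1.4% of the tested genes that matched by symbol. Its share was 2.67% among genes called higher and 1.44% among those called lower. It was found in 4 of 13 chemokines, 2 of 18 cytokines, 3 of 14 MHC class I genes and 2 of 35 interferon-stimulated genes. A match is a description of letters in this window and not of binding.

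Genes called higher that held the interferon core had median log2 ratios of 2.44, 2.21 and 2.25 in the 3 pairs, and 33 of 102 had their highest ratio in replicate 3. For the 38 that held the kB core the medians were 1.93, 1.82 and 2.44, and 18 had their highest ratio in replicate 3. Over all 1421 genes called higher with an entry the medians were 1.14, 1.04 and 1.24, and 753 had their highest ratio there. These shares describe replicate 3 as 1 pair of libraries and were not tested.

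The inequality of replicate 3 was described among the 2632 called genes with an assigned symbol and at least 10 CPM in the higher group. In 2146 the log2 ratio of replicate 3 lay within 1 of the mean of replicates 1 and 2, in 55 it was more than 2 above and in 63 more than 2 below. A call itself asks for agreement between pairs, so these counts understate how far replicate 3 departed over all genes. Mmp9, for example, was not called and lay 7.64 above. Among the called genes, the 5 farthest above were Lta, Cxcl2, Mmp13, Il2ra and Il6. Cxcl2 had log2 ratios of 4.89, 3.98 and 9.72 and the collagenase gene Mmp13 of 5.30, 5.42 and 10.40. Mmp13 had 5, 0 and 2 counts in the H2O libraries, so its ratios depend on the prior count of 2. Il1a, named after its values were seen, had 3.57, 3.07 and 7.78. The 5 farthest below were Klhl30, Sost, Cx3cr1, Slc46a3 and Siglec15, all of which fell in every pair. Klhl30 had log2 ratios of -2.86, -3.57 and -7.34 and Slc46a3, a lysosomal transporter, of -2.57, -2.51 and -6.55. Cxcl2 (0.111), Il1a (0.113), Klhl30 (0.072) and Slc46a3 (0.106) had an adjusted p over 0.05 without replicate 1. Cxcl2 (0.0715), Il1a (0.0857), Klhl30 (0.0952) and Slc46a3 (0.0912) had one over 0.05 without replicate 2, as had Il1a (0.0553) and Slc46a3 (0.058) without a filter on low counts.

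**Figure D3:**
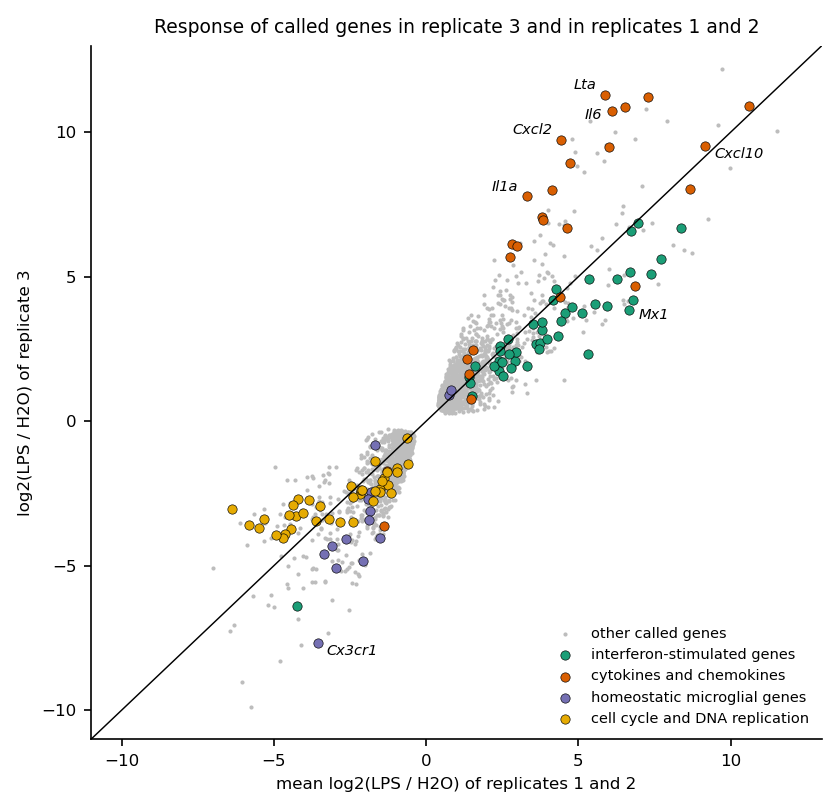
Log2 ratio of LPS to H2O in replicate 3 (vertical) against the mean of replicates 1 and 2 (horizontal) for called genes, with 4 lists in colour and a line of equality. Il6 and Cxcl2 lie above the line, Mx1 lies below it and Cx3cr1 far below it, and cytokines and chemokines lie on both sides.

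Enzymes of arginine, nitric oxide, itaconate and kynurenine metabolism held some of the largest rises: 8 of 13 tested were called higher and none lower (median 2.79). Nos2, which makes nitric oxide in activated macrophages, rose from 1.14, 0.747 and 0.632 to 1615, 413 and 3151 CPM (log2 change 10.62 ± 0.86, adjusted p = 0.00474). Arg1, which competes with Nos2 for arginine, rose too, from 0.139, 0.022 and 0.0612 to 39.4, 6.46 and 10.9 CPM (log2 change 7.88 ± 0.28, adjusted p = 0.00197). Slc7a2, which imports arginine, rose from 1.72, 0.813 and 1.94 to 251, 115 and 559 CPM (log2 change 7.52 ± 0.33, adjusted p = 0.00242), and Gch1, which starts synthesis of the Nos2 cofactor tetrahydrobiopterin, rose from 10.8, 9.14 and 9.95 to 159.7, 123 and 178 CPM (log2 change 3.93 ± 0.16, adjusted p = 0.00241). Acod1, the itaconate synthase, rose from 0.95, 0.923 and 0.143 to 399.7, 138 and 258 CPM (log2 change 8.66 ± 0.77, adjusted p = 0.00534). Replicate 3 had the highest LPS level of Nos2 and Slc7a2, and replicate 1 that of Arg1 and Acod1, and no group overlapped for these 5 genes.

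Lipid mediators and the oxidative response moved alongside. Of 14 tested prostaglandin and leukotriene genes, 7 were called higher and 2 lower (median 1.22, with 4 called without replicate 1 and 3 without replicate 2). Ptgs2, the inducible cyclooxygenase, rose from 1.88, 1.21 and 1.77 to 41.8, 31.4 and 202 CPM (log2 change 5.33 ± 0.59, adjusted p = 0.00804), and Ptger2, a receptor for prostaglandin E, rose from 3.22, 3.06 and 6.6 to 30.8, 21.2 and 62.1 CPM (log2 change 3.10 ± 0.17, adjusted p = 0.00299). Alox15 fell from 15.9, 11.8 and 8.28 to 7.28, 7.39 and 1.98 CPM (log2 change -1.27 ± 0.32, adjusted p = 0.0416). Of 18 tested oxidative burst and antioxidant genes, 9 were called higher and 1, the catalase gene Cat (named after its value was seen), lower (median 1.05, with 3 called without replicate 1 and 4 without replicate 2). Sod2, the mitochondrial superoxide dismutase, rose from 531, 464 and 262 to 5703, 5028 and 5666 CPM (log2 change 3.76 ± 0.31, adjusted p = 0.00474). Ncf4, a cytosolic subunit of the phagocyte oxidase, rose from 98.6, 111 and 57 to 744, 592 and 592 CPM (log2 change 2.90 ± 0.25, adjusted p = 0.00477), and Slc7a11, the cystine importer for glutathione synthesis, rose from 0.556, 0.637 and 0.346 to 14.6, 7.36 and 63.3 CPM (log2 change 5.19 ± 0.87, adjusted p = 0.0174). Alox15 (0.13) and Slc7a11 (0.0718) had an adjusted p over 0.05 without replicate 1, as had Alox15 (0.0701) without replicate 2. Alox15 (0.155) had one over 0.05 without the replicate block.

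Secreted acute-phase proteins were called higher in 6 of 8 tested genes (median 5.51). Lcn2, an iron-siderophore binding protein, rose from 0.533, 0.198 and 0.0815 to 1078, 1145 and 137 CPM (log2 change 11.45 ± 0.48, adjusted p = 0.00242), and here replicate 3 had the lowest LPS level. Slpi, a secreted antiprotease, rose from 0.255, 0.176 and 0.102 to 22.5, 24.1 and 26.6 CPM (log2 change 7.11 ± 0.36, adjusted p = 0.00252). Retn, which encodes resistin, was at 0.0232, 0.044 and 0 CPM with H2O and 12.4, 15.6 and 5.76 CPM with LPS, with 3 counts in the H2O group and a ratio of 519 (95% counting interval 177 to 2521, adjusted p = 0.00252), which was 838 without replicate 2. Among 21 genes of inflammasomes and cell death, 14 were called higher and none lower (median 1.23, with 8 called without replicate 1 and 7 without replicate 2). Birc3, an inhibitor of apoptosis and NF-kB target, rose from 14.1, 16.6 and 4.26 to 306, 221 and 306 CPM (log2 change 4.75 ± 0.57, adjusted p = 0.00909). Mlkl, the effector of necroptosis, rose from 24.5, 23.1 and 26.2 to 166, 161 and 140.5 CPM (log2 change 2.66 ± 0.15, adjusted p = 0.00299), and Ripk3, its kinase, rose from 45.7, 45.5 and 46.8 to 118, 166 and 207 CPM (log2 change 1.79 ± 0.20, adjusted p = 0.00754). Genes that restrain and genes that execute cell death were both higher. Of 19 AP-1, immediate early and MAPK genes, 2 were called higher and 3 lower (median -0.34, with 3 called without replicate 1, 3 without replicate 2 and 8 without replicate 3). These were 10.5% and 15.8% of the list, near or below the 15.2% and 15.1% over all genes tested. Egr1 fell from 62, 44.5 and 41.1 to 10, 11.1 and 12.8 CPM (log2 change -2.10 ± 0.23, adjusted p = 0.00758) and Batf rose from 10.6, 11.2 and 8.66 to 144, 162 and 178 CPM (log2 change 3.99 ± 0.19, adjusted p = 0.00242).

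Genes of glycolysis were higher from glucose import to lactate export. Of 24 tested genes, 18 were called higher and none lower (median 1.81, with 11 called without replicate 1 and 12 without replicate 2), 10 of them in all 3 fits that left out a replicate. Slc2a1, the glucose importer GLUT1, rose from 89.8, 76 and 37 to 738, 351 and 855 CPM (log2 change 3.25 ± 0.52, adjusted p = 0.0158). Hk1, which phosphorylates glucose, rose from 25.1, 22.7 and 34.5 to 157, 143 and 189.8 CPM (log2 change 2.59 ± 0.13, adjusted p = 0.00252), and Eno1, the enolase, rose from 647, 507 and 502 to 2763, 1996 and 2694 CPM (log2 change 2.16 ± 0.20, adjusted p = 0.00529). Ldha, which makes lactate, rose from 466, 351 and 288 to 2275, 1734 and 1700 CPM (log2 change 2.38 ± 0.18, adjusted p = 0.00421), and Slc16a3, which exports it, rose from 14.8, 12.9 and 2.94 to 297, 146 and 164 CPM (log2 change 4.52 ± 0.52, adjusted p = 0.00853). No group overlapped for these genes, and the H2O library of replicate 3 had the lowest Slc16a3 and Slc2a1. Of 21 genes of the tricarboxylic acid cycle, 1, Fh, was called higher (median -0.02, with 0 called without replicate 1, 0 without replicate 2 and 2 without replicate 3). Of 25 nuclear subunits of the respiratory chain, 2 were called higher (median 0.10, with 1 called without replicate 1, 1 without replicate 2 and 4 without replicate 3). The shares of these 2 lists, 4.76% and 8%, lay below the 15.2% called higher over all genes tested. Slc2a1 (0.0689) had an adjusted p over 0.05 without replicate 1.

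All 13 mitochondrially encoded subunits had log2 changes below 0, 9 of them called (median -0.87). Mt-atp6, a subunit of ATP synthase, fell from 1068, 1347 and 1645 to 513, 424 and 763 CPM (log2 change -1.28 ± 0.21, adjusted p = 0.0162), and Mt-co3, a subunit of cytochrome oxidase, fell from 2402, 2636 and 2557 to 1342, 1119 and 1198 CPM (log2 change -1.06 ± 0.19, adjusted p = 0.0198). None of the 9 was called without replicate 1 or without replicate 2, and 12 were called lower without replicate 3. Mt-atp6 (0.0622) and Mt-co3 (0.0759) had an adjusted p over 0.05 without replicate 1, as had Mt-atp6 (0.134) and Mt-co3 (0.187) without replicate 2. The share of counts from these 13 genes was 2.74% to 2.97% with H2O and 1.39% to 1.54% with LPS. The share from 62 cytosolic ribosomal protein genes was 1.93%, 2.41% and 2.22% with H2O and 1.04%, 1.44% and 1.53% with LPS. What part of these shifts comes from the make-up of the libraries was not tested.

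**Figure D4:**
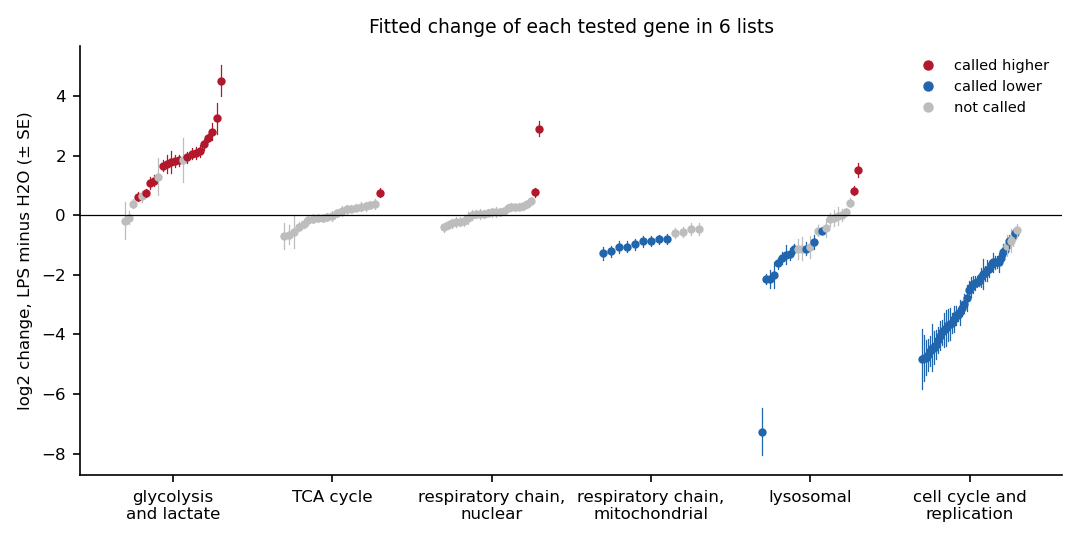
Fitted log2 change (LPS minus H2O, points, with standard error as bars) of each tested gene in 6 lists, in red where called higher, blue where called lower and grey where not called. The 18 called glycolysis genes lie above 0, the mitochondrially encoded genes between -1.28 and -0.45, and the lowest lysosomal point is Atp6v0d2, which had 1 count in the LPS group, at -7.25.

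Iron handling genes were called higher in 5 of 7 tested members (median 1.32, with 1 called without replicate 1 and 2 without replicate 2). Slc11a1, the phagosomal metal pump, rose from 271, 217 and 344 to 1434, 1279 and 1244 CPM (log2 change 2.27 ± 0.22, adjusted p = 0.00589), and Fth1, the ferritin heavy chain, rose from 8114, 5036 and 7804 to 30810, 13040 and 20850 CPM (log2 change 1.57 ± 0.24, adjusted p = 0.0136). Fth1 took more counts than any other gene in the LPS libraries of replicates 1 and 3. Of 19 sterol synthesis genes, 1 was called higher and 4 lower (median -0.37), none of them called without replicate 1 or without replicate 2. That was 5.26% and 21.1% of the list, against 15.2% and 15.1% over all genes tested. Of 9 tested genes of cholesterol efflux and LXR targets, 3 were called higher, Ch25h, Nr1h3 and Abcg1, and 1 lower (median 0.04, with 1 called without replicate 1 and 2 without replicate 2). The member called lower, Pparg, a nuclear receptor of lipid metabolism, fell from 19.5, 20.9 and 4.1 to 0.468, 0.618 and 0.204 CPM (log2 change -4.99 ± 0.29, adjusted p = 0.00318). Fth1 (0.0716) had an adjusted p over 0.05 without replicate 1, as had Fth1 (0.104) without replicate 2.

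The cell cycle list fell almost throughout: 44 of 48 tested genes were called lower and none higher (median -2.45), 25 in all 3 fits that left out a replicate. Mki67, the proliferation marker, fell from 169, 80.6 and 158 to 2.81, 7.08 and 9.54 CPM (log2 change -4.44 ± 0.55, adjusted p = 0.00968). Cdk1, the mitotic kinase, fell from 21.5, 15.9 and 37.7 to 0.205, 0.618 and 2.88 CPM (log2 change -4.77 ± 0.60, adjusted p = 0.0099), and Plk1, the polo-like kinase, fell from 19.4, 14.9 and 29 to 0.263, 0.927 and 1.86 CPM (log2 change -4.55 ± 0.51, adjusted p = 0.00811). Top2a, the topoisomerase of dividing cells, fell from 52.7, 32.5 and 93.5 to 0.38, 2.42 and 8.84 CPM (log2 change -4.45 ± 0.79, adjusted p = 0.0201). For these 4 genes the LPS library of replicate 1 was the lowest and that of replicate 3 the highest. E2f8, a repressor of the E2F family, fell from 6.83, 5.78 and 11.2 to 0.0878, 0.45 and 0.407 CPM (log2 change -4.70 ± 0.53, adjusted p = 0.00825). Mcm6, a helicase subunit whose upstream sequence is given above and which was named after its values were seen, fell from 50.2, 38.2 and 91.3 to 11.4, 15 and 13.3 CPM (log2 change -2.09 ± 0.31, adjusted p = 0.0136). The pair medians were -2.78, -1.86 and -2.72. The E2F core was found in 9 of 35 of these genes with an entry. Its share was 1.17% of all genes, 1.99% of tested genes that matched by symbol and 3.03% of those called lower. Of 10 cell cycle inhibitors, 1 was called higher and 1 lower (median 0.06, with 5 called without replicate 3). That was 10% each way, below the 15.2% and 15.1% over all genes tested. Cdkn1a, the p21 inhibitor of cyclin-dependent kinases, rose from 153, 141 and 93.6 to 1670, 807 and 666 CPM (log2 change 2.93 ± 0.25, adjusted p = 0.00477), and Cdkn2c, the p18 inhibitor, fell from 10.3, 11.5 and 19 to 1.43, 2.7 and 2.79 CPM (log2 change -2.56 ± 0.24, adjusted p = 0.00564). Mcm6 (0.0677) had an adjusted p over 0.05 without replicate 1, as had Top2a (0.0648) without replicate 2.

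Homeostatic microglial genes fell in 12 of 26 tested members and rose in 2 (median -1.74), the macrophage transcription factors Spi1 (0.90) and Runx1 (0.80), both named after their values were seen. Without replicate 1 and without replicate 2, 6 each were called, 5 of the 14 were called in all 3 fits that left out a replicate, and without replicate 3, 14 were called lower and 5 higher. Cx3cr1, the fractalkine receptor, fell from 25.7, 64.3 and 220.1 to 2.02, 5.68 and 1.02 CPM (log2 change -4.75 ± 1.02, adjusted p = 0.0296). Its H2O level differed 8.55-fold between replicates 1 and 3. Gpr34, a lysophospholipid receptor, fell from 199, 188 and 253 to 22.4, 27.4 and 7.5 CPM (log2 change -3.63 ± 0.53, adjusted p = 0.0136). Pros1, a bridging ligand for phagocytosis, fell from 33.6, 36.5 and 44.8 to 3.74, 3.06 and 1.8 CPM (log2 change -3.77 ± 0.34, adjusted p = 0.00554), and Sparc, a matrix glycoprotein, fell from 164, 157 and 240.1 to 26.6, 13.4 and 12 CPM (log2 change -3.50 ± 0.38, adjusted p = 0.00774). Trem2, the lipid-sensing receptor, fell from 565, 451 and 739 to 187, 76.4 and 25.7 CPM (log2 change -2.95 ± 0.72, adjusted p = 0.0395). P2ry12, the process-motility receptor for ADP, was not called, at 53.2, 60.8 and 77.5 CPM with H2O and at 17.1, 17.1 and 1.25 CPM with LPS (log2 change -2.86 ± 0.98, adjusted p = 0.0859), although its groups did not overlap. Tmem119 was not called either and overlapped, at 5.26, 4.92 and 31.2 CPM with H2O and at 20.3, 27 and 24.4 CPM with LPS (log2 change 1.37 ± 0.62, adjusted p = 0.154), with log2 ratios of 1.94, 2.44 and -0.35 in the 3 pairs. Spi1 (0.0939), Runx1 (0.0859), Cx3cr1 (0.0844), Gpr34 (0.0566) and Trem2 (0.0606) had an adjusted p over 0.05 without replicate 1. Spi1 (0.133), Runx1 (0.0945), Cx3cr1 (0.0651) and Trem2 (0.117) had one over 0.05 without replicate 2, as had Runx1 (0.084) without the replicate block. Trem2 (0.0506) had one over 0.05 without a filter on low counts. P2ry12 (0.000361) and Tmem119 (0.000472) had an adjusted p under 0.05 without replicate 3, as had P2ry12 (0.0261) and Tmem119 (0.0238) with DESeq2. P2ry12 (0.0195) had one under 0.05 in the joint fit of 12 libraries. The pair medians of the list were -1.01, -1.55 and -2.64, and 21 of 26 genes had their lowest ratio in replicate 3. The same pair had the largest difference in summed astrocyte markers, given above, whose part here was not tested.

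**Figure D5:**
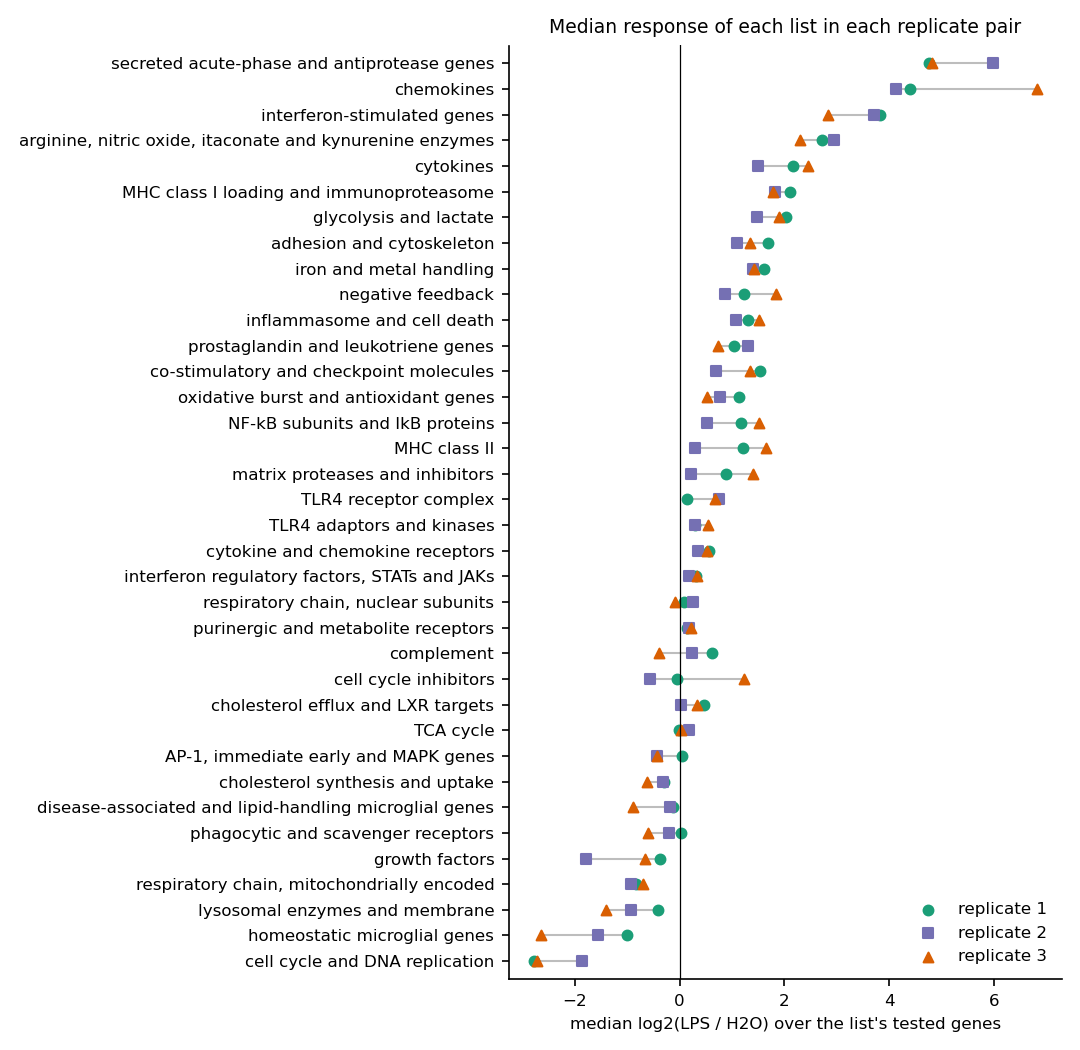
Median log2 ratio of LPS to H2O (horizontal) over the tested members of each list (vertical), with 1 point per replicate pair. Chemokines run from 4.14 to 6.82 with replicate 3 highest, interferon-stimulated genes from 2.83 to 3.83 with replicate 3 lowest, and homeostatic genes from -1.01 to -2.64 with replicate 3 lowest.

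Genes of the disease-associated microglial state, which in brain lesions rise as homeostatic genes fall, were called higher in 2 and lower in 6 of 17 tested (median -0.40, with 4 called without replicate 1 and 3 without replicate 2). That was 11.8% and 35.3% of the list, against 15.2% and 15.1% over all genes tested. Lpl, the lipoprotein lipase, fell from 4441, 3027 and 2575 to 326, 232 and 149.9 CPM (log2 change -3.86 ± 0.21, adjusted p = 0.00299), and Cd9, a tetraspanin, fell from 232, 197 and 201 to 11.1, 5.42 and 7.85 CPM (log2 change -4.74 ± 0.22, adjusted p = 0.00242). Spp1, which encodes osteopontin, fell from 4910, 3553 and 6516 to 1992, 1227 and 1398 CPM (log2 change -1.68 ± 0.26, adjusted p = 0.0144), and Gpnmb, a lysosome-linked glycoprotein, fell from 10850, 7438 and 10300 to 3978, 1609 and 1008 CPM (log2 change -2.33 ± 0.43, adjusted p = 0.0224). Cst7, an inhibitor of cathepsins, rose from 1.21, 1.54 and 0.326 to 14.9, 10.2 and 13.4 CPM (log2 change 3.80 ± 0.57, adjusted p = 0.0139). Apoe, the main lipid carrier of the brain, took more counts than any other gene in each H2O library. It was not called, at 37380, 43780 and 36850 CPM with H2O and at 27910, 21040 and 15040 CPM with LPS (log2 change -0.92 ± 0.27, adjusted p = 0.0598). Cst7 (0.0662) had an adjusted p over 0.05 without replicate 1, as had Spp1 (0.0863) and Gpnmb (0.0899) without replicate 2. Apoe (0.0335) had an adjusted p under 0.05 without replicate 3, as had Apoe (0.00132) with DESeq2. Apoe (0.00852) had one under 0.05 in the joint fit of 12 libraries.

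Lysosomal genes were called lower in 12 of 25 and higher in 2 (median -1.07, with 7 called without replicate 1 and 3 without replicate 2), with pair medians of -0.42, -0.93 and -1.40. Hexa, a lysosomal hexosaminidase subunit, fell from 682, 685 and 824 to 200.0, 198 and 112 CPM (log2 change -2.14 ± 0.29, adjusted p = 0.0119), and Tfeb, the transcription factor of lysosomal genes, fell from 66.1, 79.6 and 59.6 to 18.3, 18.4 and 10.7 CPM (log2 change -2.14 ± 0.17, adjusted p = 0.00455). Atp6v0a1, a subunit of the proton pump, rose from 385, 396 and 359 to 809, 1089 and 1443 CPM (log2 change 1.51 ± 0.24, adjusted p = 0.0154). Of 15 phagocytic and scavenger receptors, 3 were called higher and 4 lower (median -0.51, with 4 called without replicate 1 and 4 without replicate 2). That was 20% and 26.7% of the list, against 15.2% and 15.1% over all genes tested. Trem1, an amplifier of inflammation, rose from 4.17, 1.39 and 4.4 to 68.1, 41.4 and 95.9 CPM (log2 change 4.44 ± 0.23, adjusted p = 0.00252), and Scarb1, a scavenger receptor for lipoproteins, fell from 462, 491 and 310.4 to 105, 116 and 95.3 CPM (log2 change -1.98 ± 0.17, adjusted p = 0.00477). Mrc1, the mannose receptor of alternatively activated macrophages, fell from 1281, 564 and 897 to 401, 302 and 352 CPM (log2 change -1.31 ± 0.22, adjusted p = 0.0165). Complement genes split, 7 higher (43.8%) and 3 lower (18.8%) of 16 (median 0.07, with 6 called without replicate 1 and 2 without replicate 2). C1r, a protease of the classical pathway, rose from 7.83, 7.56 and 13.5 to 354, 246 and 155 CPM (log2 change 4.69 ± 0.48, adjusted p = 0.00684), and Cfb, of the alternative pathway, rose from 393, 407 and 438 to 2283, 1999 and 1564 CPM (log2 change 2.22 ± 0.22, adjusted p = 0.00628). Mrc1 (0.0716) had an adjusted p over 0.05 without replicate 1, as had Atp6v0a1 (0.0966) and Mrc1 (0.0725) without replicate 2.

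Of 12 secreted growth factors, 4 were called lower and 2 higher (median -0.62). That was 33.3% and 16.7% of the list, against 15.1% and 15.2% over all genes tested. Igf1, a trophic factor for neurons and oligodendrocytes, fell from 876, 548 and 812 to 43.7, 28 and 9.54 CPM (log2 change -4.97 ± 0.57, adjusted p = 0.00831), the lowest value again in replicate 3. Vegfb fell from 48.4, 49.8 and 59.6 to 13, 9.44 and 6.28 CPM (log2 change -2.51 ± 0.30, adjusted p = 0.00912). Ereg, a ligand of the epidermal growth factor receptor, was at 0 with H2O and at 0.644, 0.506 and 9.54 CPM with LPS, at least 162-fold higher (adjusted p = 0.0148) and at least 16.9-fold without replicate 3. Among 18 matrix proteases and inhibitors, 5 were called higher (27.8%) and 1 lower (5.56%, median of the list 0.72). Adamts4, an aggrecanase, rose from 0.162, 0.0879 and 0.408 to 13.9, 11.5 and 51.6 CPM (log2 change 6.81 ± 0.24, adjusted p = 0.00197), and Plau, the urokinase, fell from 440.4, 329.9 and 459 to 37.4, 38.5 and 9.86 CPM (log2 change -4.03 ± 0.57, adjusted p = 0.0128). Mmp9 was not called, at 166, 101 and 2.73 CPM with H2O and at 364, 243 and 1270 CPM with LPS (log2 change 2.73 ± 1.79, adjusted p = 0.289), and its H2O levels ranged 60.9-fold. Adhesion and cytoskeleton genes were called higher in 12 of 18 and lower in 2 (median 1.61, with 2 called without replicate 1 and 8 without replicate 2). Itgal, the alpha chain of the integrin LFA-1, rose from 821, 1036 and 358 to 4781, 5238 and 7483 CPM (log2 change 3.07 ± 0.51, adjusted p = 0.0169), and Itga4, the alpha chain of VLA-4, fell from 99.2, 78.7 and 94.3 to 8.48, 16.2 and 4.86 CPM (log2 change -3.36 ± 0.44, adjusted p = 0.0105). Among 17 purinergic and metabolite receptors, 7 were called higher (41.2%) and 3 lower (17.6%), with a median of 0.08. In this list 4 were called without replicate 1 and 6 without replicate 2. Hcar2, the receptor for ketone bodies and niacin, rose from 12.7, 10.3 and 12 to 288, 140.2 and 394 CPM (log2 change 4.44 ± 0.31, adjusted p = 0.00391), and Gpr183, the receptor for oxysterols, fell from 49.5, 44 and 56.1 to 0.556, 0.787 and 0.0582 CPM (log2 change -6.82 ± 0.70, adjusted p = 0.00692). Plau (0.0557), Itgal (0.0607) and Itga4 (0.0576) had an adjusted p over 0.05 without replicate 1. Mmp9 (0.00142) had an adjusted p under 0.05 without replicate 3.

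Outside the lists, the 10 largest rises among well-expressed genes without overlap added Upp1, Serpinb3a and Plac8 to genes already given. Upp1, the uridine phosphorylase, rose from 0.116, 0.0659 and 0.0408 to 131, 84.8 and 110.2 CPM (log2 change 10.49 ± 0.27, adjusted p = 0.0018). Plac8, a cysteine-rich protein of myeloid cells, rose from 0.116, 0.286 and 0.571 to 274, 206 and 268 CPM (log2 change 9.63 ± 0.51, adjusted p = 0.00299). Serpinb3a, an intracellular serpin, was at 0, 0.022 and 0.0204 CPM with H2O and 2.54, 1.18 and 44.1 CPM with LPS, with 2 counts in the H2O group and a ratio of 1088 (95% counting interval 301 to 8987, adjusted p = 0.00474), which was 164 without replicate 3 and 2160 without replicate 2. The 10 largest falls were Slc15a2, Gpr183, Plxdc2, Sost, Dhrs9, Rasgrp3, Filip1, Klra5, Hdac9 and Lilrb3. Slc15a2, a peptide transporter, fell from 13, 13.7 and 7.6 to 0.175, 0.0562 and 0 CPM (log2 change -7.26 ± 0.62, adjusted p = 0.00485). Rasgrp3, an activator of Ras, fell from 247, 207 and 309.7 to 4.68, 3.96 and 4.62 CPM (log2 change -5.83 ± 0.18, adjusted p = 0.0018). Hdac9, a class IIa histone deacetylase, fell from 34.4, 35.1 and 35.5 to 0.644, 1.26 and 0.378 CPM (log2 change -5.61 ± 0.40, adjusted p = 0.00393), with H2O libraries within 34.4 to 35.5 CPM. Sost, known as the secreted Wnt inhibitor sclerostin, fell from 35.9, 52.9 and 74.4 to 1.75, 0.309 and 0.0291 CPM (log2 change -6.65 ± 1.15, adjusted p = 0.0188). Sost (0.077) had an adjusted p over 0.05 without replicate 2.

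The nearest comparison in the study was the response of microglia from 6 further libraries to 1 µg/ml ENV against buffer (3 each), which share no library with the LPS set. The difference between the responses was tested as an interaction over all 12 libraries and 13270 genes. It was called in 1 gene (0.00754%), Adamts4, whose log2 change was 6.80 with LPS and 2.77 with ENV, a difference of 4.04 ± 0.32 (adjusted p = 0.0355). Scaled over the 12 libraries, it was at 0.181, 0.0967 and 0.432 CPM with H2O and at 14.8, 12.2 and 56.8 CPM with LPS, against 2.08, 1.48 and 0.657 CPM with buffer and 11.3, 10.2 and 5.89 CPM with ENV. The H2O libraries thus lay below the buffer libraries, and in replicates 1 and 2 the LPS and ENV levels were close. At an unadjusted p under 0.05 there were 1628 genes, and without replicate 3 of the LPS set 45 were called, 25 with a higher and 20 with a lower LPS response. Without the pairing, and without replicate 1 of the LPS set, none was called at 937 and 1689 genes under an unadjusted p of 0.05. Cxcl10 changed by 9.27 with LPS and 5.79 with ENV (difference 3.48 ± 0.95, adjusted p = 0.273). Igf1 changed by -4.999 and -2.36 (difference -2.64 ± 0.66, adjusted p = 0.258). Irf7 changed by 5.998 and 6.47 and Nos2 by 10.61 and 10.36, and their differences were not called (adjusted p = 0.79 and 0.961). Missing the threshold does not show that the responses were alike, and the sets differ also in vehicle.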

How the data were processed

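Messenger RNA of 3 LPS and 3 H2O libraries of primary rat microglia was analysed. The deposited values are raw counts by gene symbol, not normalized by the authors. The submitters' processing notes name mRatBN7.2 as assembly and, as tools, HISAT2 and StringTie 1.3.3b. The sources used here do not state their roles, the annotation or the strand setting. Reads of paralogs (Ccl, Cxcl, Ifit, Oas, RT1, Klra, Lilrb and Serpinb families) or of overlapping genes could not be separated.

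Counts were tested with the 2-sided edgeR quasi-likelihood F test (edgeR 4.0.16, limma 3.58.1, R 4.3.3; TMM normalization, filterByExpr, robust fit) with the replicate number as a block. The check of the pairing is the correlation of same-numbered libraries' deviations from their group means, over 0.1 in each pair. Replicates 1 and 2 of opposite groups passed it too, at 0.2 and 0.19, so it cannot tell these 2 pairs apart. The titles number the libraries but do not say what a number shares. Adjusted p-values are Benjamini-Hochberg values over all 12229 genes tested, called under 0.05. CPM used TMM effective library sizes, except for the marker sums, which used plain library totals. Pair ratios used a prior count of 2. Of the genes tested, 117 passed the filter through the LPS group alone and 165 through the H2O group alone, so list counts over tested genes are not counts over all members. Totals of 38080379 to 42724111 counts gave a floor (3 counts) of 0.0612 to 0.0878 CPM per library. Intervals and floors cover counting error only, since reads carried no molecular identifiers. The LPS response minus the ENV response was tested over 12 libraries with a block for each of 6 pairs. Only the paired LPS fit was tested on simulated data. Those data had a common dispersion for all genes and equal effects in all pairs, unlike the data here.

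The libraries, the gene lists and the tests were chosen with earlier results of these data known. Genes are named if they are among the 10 largest rises or falls, the 6 largest called changes or 2 most abundant uncalled members of a list, or a fixed panel. Also named are the 5 called genes most unequal in replicate 3 either way and those called between LPS and ENV. Others are marked in the text. A few members of these lists are not reported here. Alternatives were no replicate block, DESeq2 size factors, no or a stricter filter, DESeq2 1.42.0, a joint fit of 12 libraries, and each replicate left out. Upstream sequences matched 9185 of the tested symbols, and 3251 genes with several entries counted as holding a motif if any entry did.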

Additional observations from a re-analysis of the deposited data

How the results depend on the processing

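The count of 3707 called genes (1864 higher, 1843 lower) stayed within 1.5 times under 5 alternatives: 3647 without the replicate block, 3690 with DESeq2 size factors, 3548 without a filter, 3431 with at least 1 CPM in 3 libraries and 4718 with DESeq2. The joint fit of 12 libraries called 5743 genes, of which 3189 were lower. Leaving out a replicate of both groups gave 1051 to 4954 called genes, 582 to 2455 higher and 469 to 2499 lower, the largest counts without replicate 3. Of the genes called with and without the replicate block, 3149 were shared, 84.9% of the paired and 86.3% of the unpaired calls. The biological coefficient of variation was 25.9% with the block and 36.8% without it.

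The count for the LPS response minus the ENV response was 1, and 1 with DESeq2 size factors, 0 without the replicate block, and 0 to 45 when replicate 1, 2 or 3 of the LPS and H2O groups was left out (2 without replicate 2). Of 140 genes named with a value, 38 lost the threshold without replicate 1, 31 without replicate 2 and 0 without replicate 3, where 6 gained it. Without a filter on low counts 4 lost it, and without the replicate block 3. It was gained by 7 with DESeq2, 4 in the joint fit, 2 without the block and 1 without replicate 1. In 2 genes not called, the sign turned without replicate 3: Csf1r to 0.21 (-0.67 without replicate 1) and Ly96 to 0.14 (-0.14 without replicate 2). No other named gene changed sign under any alternative run. With 1 pair left out 1 residual degree of freedom remained among the libraries. The losses differed by pair at that same size, and the cause was not tested. Depth limited genes near the floor: with at most 3 counts in a group a bound or a ratio of counts is given.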
